A study of Mus musculus with 13 samples.

Results

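The genes described here are enzymes that clear foreign compounds, endogenous lipids and aldehydes: cytochrome P450s (Cyp), flavin-containing monooxygenases (Fmo), glutathione S-transferases (Gsta, Gstm, Gstp, Gstt, Gsto and the membrane-bound Mgst), sulfotransferases (Sult), UDP-glucuronosyltransferases (Ugt1, Ugt2) and aldehyde dehydrogenases (Aldh). They were chosen by gene symbol, leaving out Cyp51, and by a measured value: a gene was kept where its mean log2 expression over all 13 arrays was at least 5. Of 18818 genes measured by a probe set of 1 gene, 154 had such a symbol and 67 passed the minimum. These were 26 Cyp genes of 87, 4 Fmo of 5, 17 glutathione S-transferases of 19, 3 Sult of 15 and 17 Aldh of 20. Among the 26 Cyp genes is Cyp2d37-ps, annotated as a transcribed pseudogene. None of the 8 Ugt genes passed, the highest of them having a mean of 3.99. The choice of the families and of the minimum was made with earlier results of these data known, so counts over the 67 genes describe them and support nothing further.

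RNA came from the epididymal white fat of male mice, wild type C57Bl/6J or CD1d-/- on a B6.129S6 background, the latter lacking Cd1d1 and Cd1d2. All of them started a high-fat diet at 6 weeks of age and were injected intraperitoneally on days 0 and 2 with αGalCer (α-galactosylceramide, 100 ng per g of body weight) or with pyridine, its vehicle. Fat was taken on day 4, when the mice were 6.5 weeks old. Wild type was measured on 3 vehicle and 4 αGalCer arrays, and the knockout on 3 of each. αGalCer is a glycolipid that natural killer T (NKT) cells recognise when CD1d presents it, and mice without CD1d lack these cells. The knockout is present from conception in every cell, and a stretch of the donor strain's genome around the targeted genes may travel with it.

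Clearance runs in steps. Cytochrome P450s and flavin-containing monooxygenases add or expose a reactive group. Aldehyde dehydrogenases turn the resulting or endogenous aldehydes into acids, among them retinaldehyde into retinoic acid. Transferases then attach glutathione, sulfate or glucuronate so that transporters can export the product. In fat the same enzymes handle lipid peroxidation products, retinoids, steroids and fatty acids, and several of them are abundant in adipocytes.

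Promoters of 4 genes that stand for the 2 directions of change described next are shown, each running from 250 bases before to 50 bases after the transcription start. Capitals mark matches on either strand to TGACNNNGC, the core of the antioxidant response element that NRF2 binds, or to GCGTG, the core that the aryl hydrocarbon receptor binds. The sequences are RefSeq's, on GRCm38.p6. Cyp4f18, which had the largest rise, lies on the minus strand at chr8:72009577-72009876, and Aldh1a2, which rose, on the plus strand at chr9:71215539-71215838. Cyp2e1, which fell, lies on the plus strand at chr7:140763569-140763868, and Gsta3, which fell, on the plus strand at chr1:21240335-21240634.
Cyp4f18: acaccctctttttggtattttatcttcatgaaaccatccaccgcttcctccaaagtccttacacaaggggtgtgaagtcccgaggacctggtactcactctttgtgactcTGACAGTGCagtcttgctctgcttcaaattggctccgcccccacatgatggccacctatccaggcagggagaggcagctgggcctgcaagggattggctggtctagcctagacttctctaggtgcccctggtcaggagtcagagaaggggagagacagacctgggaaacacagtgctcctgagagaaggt
Aldh1a2: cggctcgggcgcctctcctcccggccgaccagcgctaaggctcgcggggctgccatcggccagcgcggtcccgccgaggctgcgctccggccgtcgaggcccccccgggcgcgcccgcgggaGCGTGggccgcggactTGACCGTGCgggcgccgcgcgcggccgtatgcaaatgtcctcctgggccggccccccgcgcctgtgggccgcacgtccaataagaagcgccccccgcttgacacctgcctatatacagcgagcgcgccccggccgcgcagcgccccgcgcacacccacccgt
Cyp2e1: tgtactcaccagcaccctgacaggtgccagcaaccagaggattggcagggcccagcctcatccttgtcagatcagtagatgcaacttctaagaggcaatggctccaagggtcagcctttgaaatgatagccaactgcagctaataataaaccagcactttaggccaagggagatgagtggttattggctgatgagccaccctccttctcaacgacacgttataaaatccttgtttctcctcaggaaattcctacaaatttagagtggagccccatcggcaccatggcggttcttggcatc
Gsta3: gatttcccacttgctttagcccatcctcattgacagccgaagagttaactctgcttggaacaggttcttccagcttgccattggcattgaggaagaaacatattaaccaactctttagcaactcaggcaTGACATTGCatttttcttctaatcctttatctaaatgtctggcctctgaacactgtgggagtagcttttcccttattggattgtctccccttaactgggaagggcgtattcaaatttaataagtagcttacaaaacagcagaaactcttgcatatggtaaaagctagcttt
Cyp4f18 and Gsta3 had 1 antioxidant response element core each, Aldh1a2 had 1 of them and 1 aryl hydrocarbon receptor core, and Cyp2e1 had neither. No match of one motif overlapped a match of the other in these windows. Of the 67 genes, 54 had a promoter entry, with 64 windows between them. The antioxidant core stood in 10.9% of these windows and in 12.4% of all 32851 RefSeq windows of the same length. The GCGTG core stood in 29.7% and 32.4%. It stood in 7 of the 12 windows of genes that rose, in 6 of the 41 of genes that fell and in 6 of the 11 of genes not called. The direct repeat of the nuclear receptor half-site with a single spacer base, which retinoid X receptor pairs bind, was found in 0 of the 64 windows and in 0.0396% of all windows. A match describes letters in the window and is no evidence of binding.

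The values are RMA log2 expression, on which a difference of 1 is a doubling, and ± beside a change is its standard error (SE). Cd1d1 had a mean of 10.69 ± 0.15 (SD, n = 3) in wild type after vehicle and 3.73 ± 0.29 (SD, n = 3) in the knockout after vehicle, as labelled. The tissue's defining markers were present: the mean of 8 adipocyte markers was 11.88 to 11.99 in wild type after vehicle and 12.01 to 12.11 in both knockout groups. It was 10.04 to 10.85 in wild type after αGalCer, where 8 of 8 adipocyte, 5 of 5 endothelial and 6 of 6 fibroblast markers were lower, while 8 of 8 macrophage and 7 of 7 T and NK cell markers were higher (limma, adjusted p under 0.05). In bulk tissue, fewer cells of a type and less RNA per cell cannot be told apart, and the part of these shifts in the enzyme results was not tested. Arrays also differed within groups. The mean of 9 markers of ductal and ciliated epithelium was 7.42, 6.09 and 7.66 in wild type after vehicle and 8.39, 6.60 and 5.56 in the knockout after vehicle, against 5.15 to 5.52 in the 7 arrays after αGalCer. In wild type, 7 of these 9 epithelial markers and 4 of 5 hepatocyte markers were called lower after αGalCer. So was 1 of 5 in each of the mesothelium, epididymis and skeletal muscle lists. None of these lists had a marker called higher. In the knockout, muscle markers averaged 10.05 and 8.24 in vehicle replicates 1 and 2 and 10.09 in the third αGalCer array. The remaining 10 arrays had 5.80 to 6.78. Calls that ended without the 3 arrays highest in epithelial markers (wild type vehicle replicates 1 and 3 and knockout vehicle replicate 1), or without the 3 highest in muscle markers, are named with their values. Both alternatives were chosen after seeing the data, and each leaves 1 vehicle array in a genotype, taken to vary like the other groups. Arrays of a group are named as replicates in the labels, with no word on separate animals, so the p-values describe a spread between samples that may be technical.

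In wild type mice αGalCer changed most of these enzymes, and most of those that changed were lower. Of the 67 genes, 39 fell and 15 rose (limma over all 18818 genes, Benjamini-Hochberg adjusted p under 0.05), and 13 did not pass the test. Over all genes tested 41.9% were called, 22.0% lower and 19.8% higher, and among the 12704 genes with a mean of at least 5 these shares were 56.5%, 29.7% and 26.8%. The median change of the 67 was -0.71, against -0.02 over all genes. The falls took in all 4 Fmo genes, all 3 Sult genes and 14 of the 17 glutathione S-transferases, whereas the Aldh family split into 8 lower and 7 higher. The Cyp family gave 10 lower, 5 higher and 11 not called. Without the 3 arrays highest in epithelial markers 32 falls and 9 rises were called, and with the epithelial marker mean as a covariate 33 and 14. In wild type that marker mean was 6.09 to 7.66 after vehicle and 5.23 to 5.52 after αGalCer, without overlap. The covariate can therefore take up part of an αGalCer effect, and the 2 cannot be told apart. Of the 67, 61 had a mean of at least 5 in every group, and Gstp3 reached 5 in wild type after αGalCer alone. In 55 of the 67 the αGalCer arrays lay wholly above or wholly below the vehicle arrays of wild type, a separation found in 46.7% of all genes and in 61.2% of those with a mean of at least 5.

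**Figure D1:**
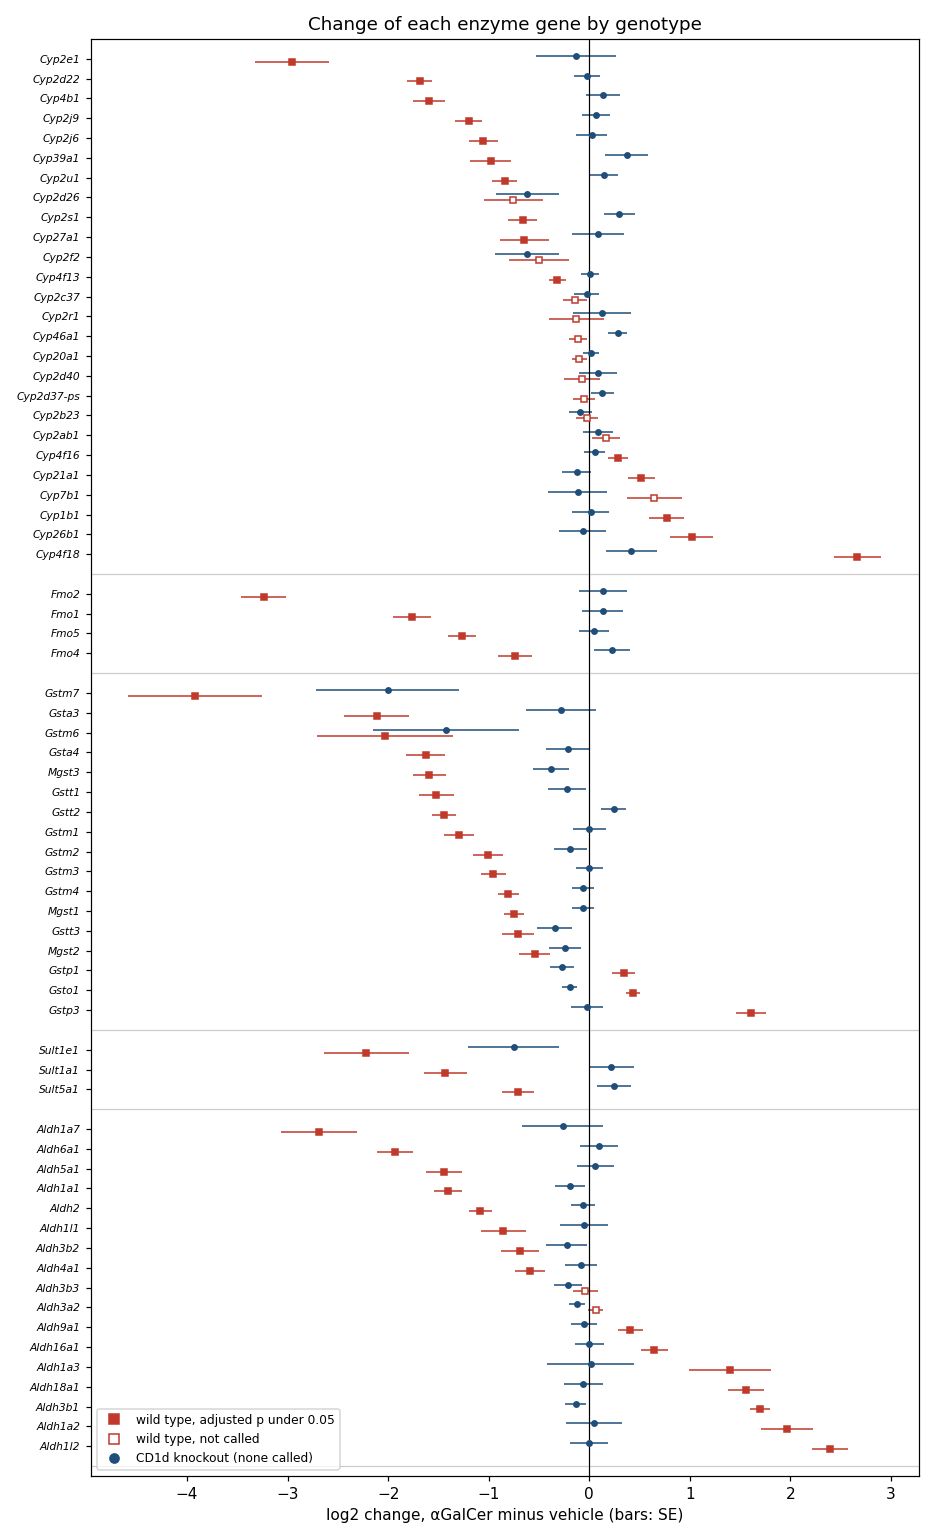
Change of each of the 67 genes after αGalCer on the log2 scale (x axis, αGalCer minus vehicle; bars are SE), by family, in wild type (red squares, filled where adjusted p is under 0.05) and CD1d knockout (blue circles). In wild type 39 genes lie to the left and 15 to the right as filled squares, and no knockout change passed the test.

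Among the cytochrome P450s, Cyp2e1 fell furthest. Its product oxidises ethanol, acetone and other small molecules. Its log2 expression was 11.70, 12.03 and 12.33 in wild type after vehicle, 9.00, 7.97, 10.29 and 8.98 after αGalCer, 12.69, 12.77 and 12.67 in the knockout after vehicle and 12.53, 12.55 and 12.66 in the knockout after αGalCer. The 4 wild type αGalCer arrays were the lowest of the 13 and spread over more than any other group. The fall was 2.96 ± 0.37 on the log2 scale, or 7.76-fold (limma, adjusted p = 2.77e-05), and the change in the knockout was -0.13 ± 0.40 (adjusted p = 0.948). Markers of hepatocytes, another cell type rich in Cyp2e1, averaged 7.27 to 7.44 in wild type after vehicle and 5.68 to 6.03 after αGalCer. Across the 3 knockout vehicle arrays those markers ranged from 6.14 to 8.05 and Cyp2e1 from 12.67 to 12.77. Whether hepatocyte RNA had a part in the Cyp2e1 values was not tested.

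Of the 14 genes of the Cyp2 family 6 fell and none rose. The 42.9% called was close to the 41.9% of all genes and below the 56.5% of those with a mean of at least 5. After Cyp2e1 the largest of these falls were in Cyp2d22, by 1.69 ± 0.12 (adjusted p = 3.82e-07), and in the arachidonic acid epoxygenases Cyp2j9, by 1.20 ± 0.13 (adjusted p = 9.29e-06), and Cyp2j6, by 1.06 ± 0.14 (adjusted p = 5.64e-05). Cyp2u1, a fatty acid hydroxylase, and Cyp2s1 fell by 0.84 and 0.66. The Cyp2d and Cyp2j genes have close copies that probes can share, so which copy changed is uncertain. Cyp4b1, which hydroxylates fatty acids and activates some furan toxins, was 9.57, 9.77 and 9.65 after vehicle and 8.27, 7.74, 8.42 and 7.85 after αGalCer in wild type. The 2 groups did not overlap, and the fall was 1.59 ± 0.15 (adjusted p = 2.99e-06).

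Cyp39a1, an oxysterol hydroxylase of bile acid synthesis, fell by 0.98 ± 0.20 (adjusted p = 0.00145). For Cyp27a1, the mitochondrial sterol hydroxylase, the change was -0.65 ± 0.24 at an adjusted p of 0.0477. That call was lost in 18 of 25 alternatives, the change being -0.65 without the 3 arrays highest in epithelial markers (adjusted p = 0.245) or in muscle markers (adjusted p = 0.0880) and -0.47 without wild type αGalCer replicate 1 (adjusted p = 0.123). Cyp7b1, another oxysterol hydroxylase, was not called: it was 5.41, 5.39 and 5.35 after vehicle and 6.41, 5.43, 5.53 and 6.76 after αGalCer (change 0.65 ± 0.28, adjusted p = 0.0794). Replicates 1 and 4 of that group stood above replicates 2 and 3.

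The Cyp genes that rose act on leukotrienes, retinoic acid, steroids and aryl hydrocarbons. Cyp4f18 inactivates leukotriene B4 by hydroxylation in mouse neutrophils. It was 5.73, 6.85 and 6.70 in wild type after vehicle and 9.16, 9.18, 9.21 and 8.82 after αGalCer, against 6.83, 6.86 and 6.49 in the knockout after vehicle and 7.45, 7.10 and 6.90 after αGalCer. Every wild type αGalCer array was above the other 9 arrays. The rise was 2.67 ± 0.23, or 6.35-fold (adjusted p = 1.32e-06), and the change in the knockout was 0.42 ± 0.25 (adjusted p = 0.768). Its promoter is printed above. Cyp26b1, which breaks down retinoic acid, rose by 1.02 ± 0.22 (adjusted p = 0.00188), from 4.97 to 5.52 after vehicle to 5.83 to 6.75 after αGalCer. Cyp1b1, which hydroxylates estrogens and aryl hydrocarbons, rose by 0.77 ± 0.17 (adjusted p = 0.00284). Without the 3 arrays highest in epithelial markers its change was 0.70 (adjusted p = 0.0762). Its second, dimmer probe set changed by 0.47.

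The remaining rises were small. Cyp21a1, the adrenal steroid hydroxylase, rose by 0.52 ± 0.13 from a low level of 4.87, and its second, dimmer probe set changed by 0.10. Without the 3 arrays highest in epithelial markers its change was 0.46 (adjusted p = 0.0932). Cyp4f16 rose by 0.29 ± 0.10 and Cyp4f13 fell by 0.32 ± 0.09, and both belong to a subfamily of close copies. The Cyp4f16 call was lost under 6 of the alternatives and the Cyp4f13 call under 2. Both calls were lost without wild type vehicle replicate 3, with changes of 0.25 (adjusted p = 0.126) and -0.25 (adjusted p = 0.0581). The Cyp4f16 change was 0.31 without the 3 arrays highest in epithelial markers (adjusted p = 0.0931), and that of Cyp4f13 was -0.29 under the epithelial covariate (adjusted p = 0.0736). Cyp20a1, an orphan P450 with a mean of 9.21 ± 0.13 (SD, n = 3) after vehicle, changed by -0.10 ± 0.07 and was not called.

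**Figure D2:**
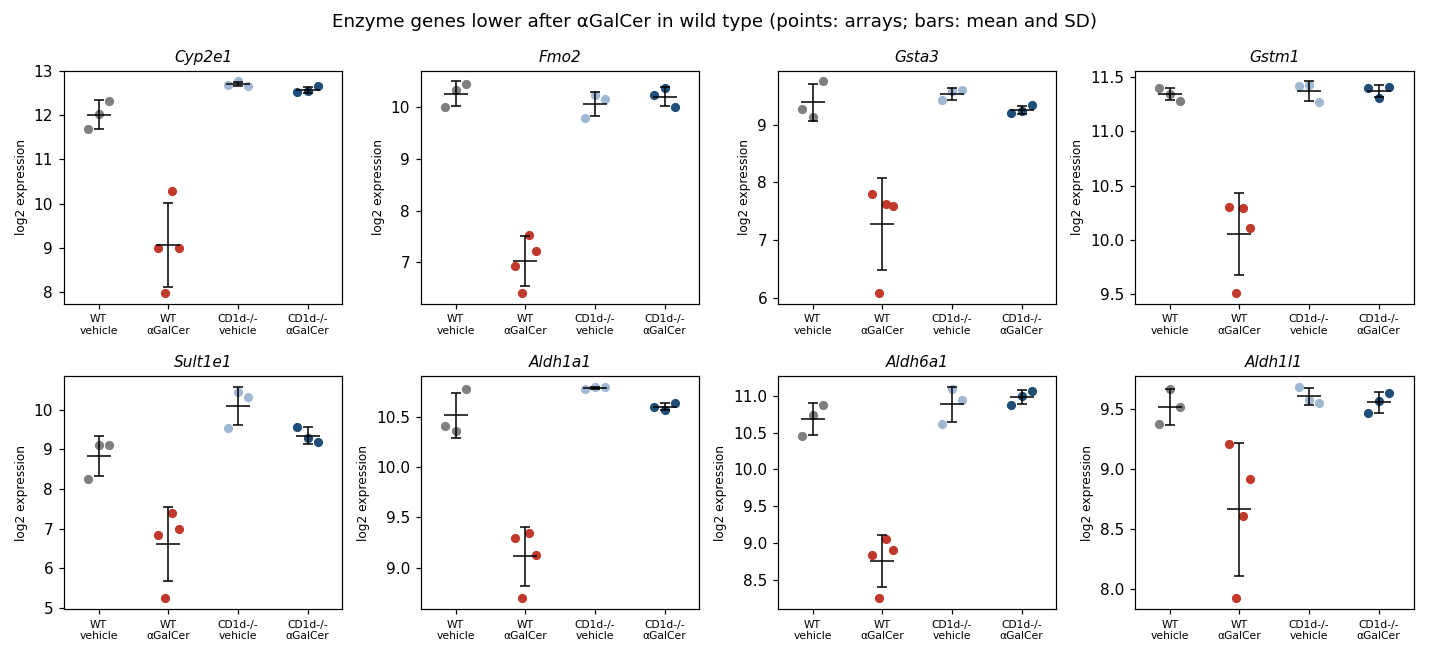
Log2 expression (y axis, scaled per gene and not starting at 0) of 8 genes that were lower after αGalCer in wild type, by group; points are arrays, horizontal bars are means and error bars SD. The 4 wild type αGalCer arrays lie below all 9 other arrays in each panel, and replicate 2 is the lowest of them.

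All 4 flavin-containing monooxygenases fell. Fmo2 was 9.99, 10.34 and 10.45 in wild type after vehicle and 6.92, 6.41, 7.53 and 7.23 after αGalCer, and 9.80 to 10.37 over the 6 knockout arrays. The αGalCer arrays of wild type lay far below the others, and the fall of 3.24 ± 0.22 was 9.43-fold (adjusted p = 2.3e-07). Fmo1, which oxygenates nitrogen and sulfur atoms in drugs and also makes taurine, was 10.84, 10.93 and 11.16 after vehicle and 9.14, 8.64, 9.74 and 9.34 after αGalCer, a fall of 1.76 ± 0.19 (adjusted p = 7.32e-06). Fmo5, whose loss makes mice lean, fell by 1.26 ± 0.14 (adjusted p = 7.83e-06). Fmo4, near the minimum at 5.35 after vehicle, fell by 0.74 ± 0.17 (adjusted p = 0.00299), and the change was -0.59 without the 3 arrays highest in epithelial markers (adjusted p = 0.0502).

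In the main fit the glutathione S-transferases divided by class. All 6 Gstm genes, both Gsta genes, all 3 Gstt genes and all 3 Mgst genes fell, and both Gstp genes and Gsto1 rose. The calls of Gstm6, Gstp1, Mgst2 and Gstt3 were lost under 7, 5, 2 and 1 of the alternatives. The mean of Gstp3 was 6.18 in wild type after αGalCer. It was 4.57 in wild type after vehicle, and 4.81 and 4.79 in the knockout after vehicle and αGalCer. Gstp3 was thus kept only for its level in the group where it rose. Gsta3, whose promoter is printed above and whose mouse product conjugates the epoxide of aflatoxin, was 9.28, 9.14 and 9.75 after vehicle and 7.80, 6.08, 7.63 and 7.60 after αGalCer in wild type. It was 9.20 to 9.61 in the knockout, so the αGalCer arrays of wild type stood below the rest, with replicate 2 lowest by more than 1 unit. The fall was 2.11 ± 0.32 (adjusted p = 0.000147). Gsta4, which conjugates the lipid peroxidation product hydroxynonenal and is known from adipocytes, was 7.38, 7.21 and 7.35 after vehicle and 5.74, 5.23, 6.03 and 5.74 after αGalCer, a fall of 1.63 ± 0.20 (adjusted p = 1.99e-05).

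Gstm1, a mu-class enzyme of broad substrate range, fell by 1.30 ± 0.15 from 11.35 ± 0.06 (SD, n = 3) to 10.05 ± 0.38 (SD, n = 4), with an adjusted p of 1.53e-05. Gstm2, Gstm3 and Gstm4 fell by 1.01, 0.95 and 0.80. The second probe set of Gstm3 gave a smaller change of -0.32, and the Gstm genes lie together on chromosome 3 and resemble each other, so probes may be shared among them. The theta-class genes Gstt1, Gstt2 and Gstt3 fell by 1.52, 1.44 and 0.71, and the change of Gstt3 was -0.48 under the epithelial covariate (adjusted p = 0.0686). Of the membrane-bound enzymes, Mgst3 fell by 1.59 ± 0.17 (adjusted p = 5.33e-06), Mgst1 by 0.75 ± 0.10 (adjusted p = 5.12e-05) and Mgst2 by 0.54 ± 0.15 (adjusted p = 0.0111). The Mgst2 call was lost without wild type vehicle replicate 3 (adjusted p = 0.0519) and without the 3 arrays highest in epithelial markers, where the change was -0.39 (adjusted p = 0.208).

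Gstp3 was 4.64, 4.65 and 4.42 in wild type after vehicle and 6.50, 6.12, 5.85 and 6.26 after αGalCer. All 9 other arrays lay between 4.42 and 5.05. The rise was 1.61 ± 0.15 (adjusted p = 1.89e-06). Gstp1, its close copy, rose by 0.34 ± 0.11 from 10.43 (adjusted p = 0.0264). That call was lost in 5 of 25 alternatives, among them leaving out any 1 of the wild type vehicle arrays or αGalCer replicate 3. Its change was 0.35 without the 3 arrays highest in epithelial markers, where the adjusted p was largest at 0.0854. Gsto1, which reduces dehydroascorbate, rose by 0.43 ± 0.07 (adjusted p = 0.000218).

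Gstm7 and Gstm6, also on chromosome 3 and also open to shared probes, had the widest spread among the vehicle arrays. Gstm7 was 10.55, 8.61 and 11.20 in wild type after vehicle, 6.60, 5.81, 6.24 and 6.16 after αGalCer, 11.54, 9.55 and 8.26 in the knockout after vehicle and 7.67, 7.79 and 7.88 after αGalCer. Gstm6 was 7.74, 6.04 and 8.90, then 6.08, 4.99, 5.50 and 5.56 in wild type, and 9.36, 7.28 and 6.27, then 6.22, 6.16 and 6.25 in the knockout. In each genotype both were highest in the vehicle array with the highest epithelial marker mean. The fall of Gstm7 in wild type was 3.92 ± 0.67, or 15.1-fold (adjusted p = 0.000339), and that of Gstm6 2.03 ± 0.68 (adjusted p = 0.0285; 0.151 without wild type vehicle replicate 3). The knockout changes were -2.01 ± 0.71 and -1.43 ± 0.72, not called (adjusted p = 0.720 and 0.744). Without the 3 arrays highest in epithelial markers Gstm7 fell by 2.41 in wild type (adjusted p = 0.000966) and the change of Gstm6 was -0.51 (adjusted p = 0.379). With the epithelial marker mean as a covariate these were -1.90 (adjusted p = 0.000109) and -0.05 (adjusted p = 0.942). That covariate was itself lower in wild type after αGalCer and can take up part of the change.

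Sult1c2, Sult1d1 and Cyp2j13, all below the minimum, varied over the vehicle arrays in the same order of arrays within the knockout. Sult1c2, for example, was 5.71, 4.24 and 6.21 in wild type after vehicle and 6.40, 4.54 and 3.49 in the knockout after vehicle, and at most 3.71 in the 7 arrays after αGalCer. These 3 genes were lower in wild type by 1.94, 1.68 and 1.72 (adjusted p = 0.0132, 0.00672 and 0.0150).

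**Figure D3:**
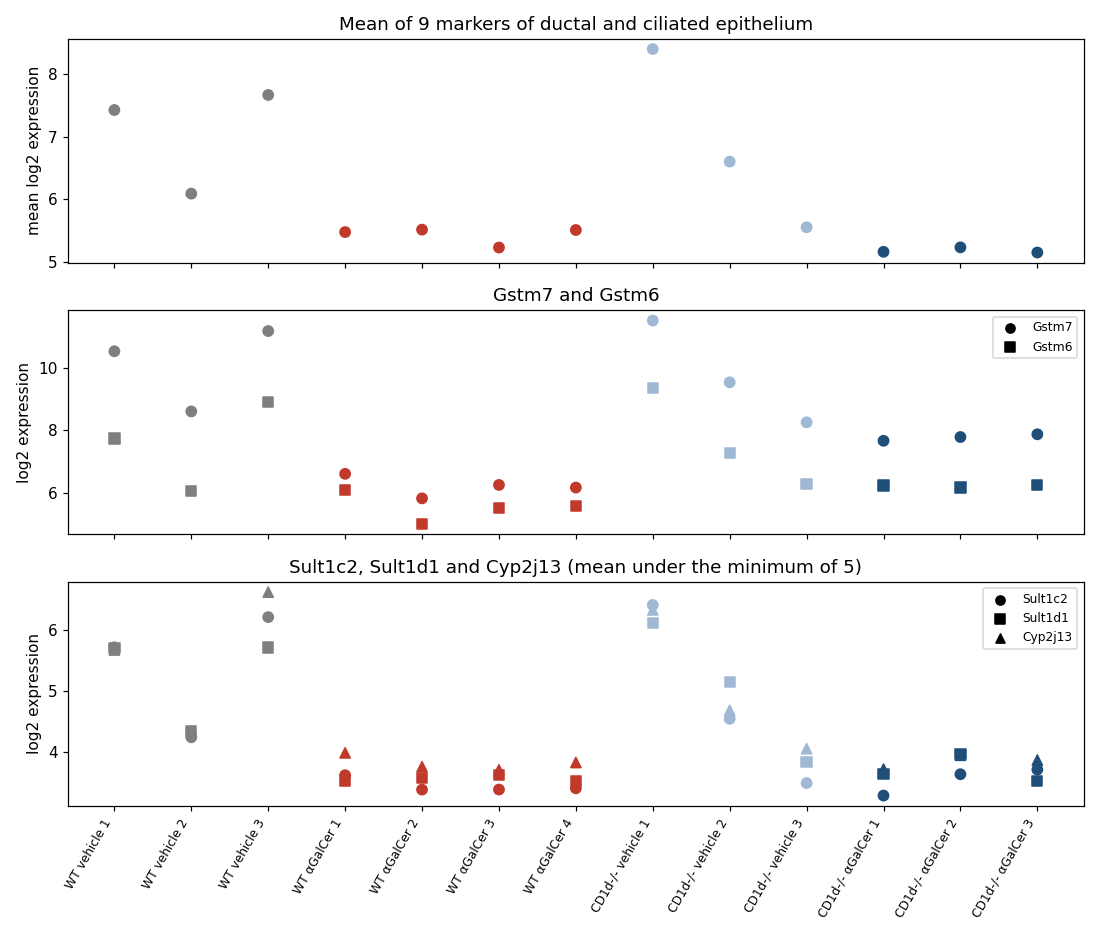
Log2 expression per array of the mean of 9 epithelial markers (top), Gstm7 and Gstm6 (middle) and 3 genes below the minimum (bottom), with arrays on the x axis coloured by group. The markers and the 5 genes are highest in wild type vehicle replicates 1 and 3 and knockout vehicle replicate 1, and the marker mean is at most 5.52 in all αGalCer arrays.

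The sulfotransferases fell together. Sult1e1, which inactivates estrogen by sulfation, was 8.25, 9.12 and 9.12 in wild type after vehicle, 6.84, 5.24, 7.39 and 6.98 after αGalCer, 9.54, 10.44 and 10.31 in the knockout after vehicle and 9.57, 9.29 and 9.17 after αGalCer. The wild type αGalCer arrays were the lowest and the knockout vehicle arrays the highest. The fall in wild type was 2.22 ± 0.42 (adjusted p = 0.000803), and the change in the knockout was -0.75 ± 0.45 (adjusted p = 0.770). Sult1a1, the phenol sulfotransferase, fell by 1.43 ± 0.21 (adjusted p = 0.000111) and Sult5a1 by 0.71 ± 0.16 (adjusted p = 0.00311). The Sult5a1 change was -0.43 without the 3 arrays highest in epithelial markers (adjusted p = 0.171).

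The aldehyde dehydrogenases moved in both directions, and several pairs of related enzymes parted. Among those that make retinoic acid, Aldh1a1 fell while Aldh1a2 and Aldh1a3 rose. Aldh1a1 was 10.42, 10.36 and 10.78 in wild type after vehicle and 9.29, 8.69, 9.34 and 9.12 after αGalCer, against 10.57 to 10.80 in the knockout. The wild type αGalCer arrays were the 4 lowest, and the fall was 1.40 ± 0.14 (adjusted p = 3.75e-06). Aldh1a7, its close copy in mice, fell by 2.69 ± 0.38 (adjusted p = 7.13e-05).

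Aldh1a2 was 6.65, 7.46 and 6.93 in wild type after vehicle and 9.65, 8.55, 8.55 and 9.15 after αGalCer, against 7.07 to 7.52 in the knockout. All 4 wild type αGalCer arrays exceeded the other 9, and the rise was 1.96 ± 0.26 or 3.90-fold (adjusted p = 4.34e-05). Aldh1a3 was 7.12, 7.33 and 7.56 after vehicle and 9.98, 8.26, 7.67 and 9.04 after αGalCer. Its 4 αGalCer arrays spread over more than 2 units, with replicate 3 inside the knockout's range of 7.28 to 8.00. The rise of 1.40 ± 0.41 passed the test (adjusted p = 0.0136), but its adjusted p was 0.0513 without wild type vehicle replicate 1 and 0.119 without the 3 arrays highest in epithelial markers, where the change was 1.41. Beside these 2 synthetic enzymes stood the rise of Cyp26b1, which degrades their product.

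The 2 formyltetrahydrofolate dehydrogenases of folate metabolism also parted. The cytosolic Aldh1l1 was 9.37, 9.67 and 9.52 after vehicle and 9.21, 7.92, 8.61 and 8.92 after αGalCer in wild type, a fall of 0.85 ± 0.22 (adjusted p = 0.00721). Its change was -1.005 without the 3 arrays highest in epithelial markers (adjusted p = 0.0517). The mitochondrial Aldh1l2 was 5.32, 5.12 and 5.12 after vehicle and 7.74, 8.01, 7.20 and 7.36 after αGalCer, while the 6 knockout arrays held 5.02 to 5.46. Each wild type αGalCer array was thus well above all others for Aldh1l2, and the rise was 2.39 ± 0.18, or 5.26-fold (adjusted p = 3.6e-07).

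Aldh18a1, which starts proline synthesis from glutamate, was 7.91, 7.84 and 7.80 after vehicle and 9.88, 9.41, 8.95 and 9.39 after αGalCer, a rise of 1.56 ± 0.18 (adjusted p = 1.45e-05). Aldh4a1, which completes proline breakdown, fell by 0.59 ± 0.15 (adjusted p = 0.0055), with a value of -0.34 under the epithelial covariate (adjusted p = 0.147). In the Aldh3b group, which oxidises lipid aldehydes, Aldh3b1 rose by 1.70 ± 0.10 (adjusted p = 9.89e-08) and Aldh3b2 fell by 0.69 ± 0.19 (adjusted p = 0.00938). The Aldh3b2 value was -0.43 under the epithelial covariate (adjusted p = 0.178) and -0.51 without the 3 arrays highest in epithelial markers (adjusted p = 0.182), and its second probe set changed by -0.58. Aldh3b3 changed by -0.04 ± 0.13, with -0.39 in its second, dimmer probe set, and the fatty aldehyde dehydrogenase Aldh3a2 by 0.06 ± 0.07, neither of them called. The Aldh3b1 arrays after αGalCer lay within 9.89 to 10.02, against 8.11 to 8.62 in the other 9.

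Aldh6a1, Aldh5a1 and Aldh2, mitochondrial enzymes of amino acid and ethanol breakdown, were lower in wild type. The mitochondrial Aldh1b1, below the minimum and described further on, rose. Aldh6a1, of valine and thymine breakdown, was 10.45, 10.75 and 10.87 after vehicle and 8.83, 8.24, 9.05 and 8.90 after αGalCer, a fall of 1.93 ± 0.17 (adjusted p = 1.7e-06). Aldh5a1, which clears succinate semialdehyde from GABA breakdown, fell by 1.44 ± 0.18 (adjusted p = 2.04e-05). Aldh2, the mitochondrial acetaldehyde dehydrogenase, fell by 1.08 ± 0.12 from 11.21 (adjusted p = 6.72e-06). Aldh9a1, of carnitine synthesis, rose by 0.41 ± 0.12 (adjusted p = 0.0171) and Aldh16a1 by 0.65 ± 0.14 (adjusted p = 0.00181). The Aldh9a1 call was lost without wild type vehicle replicate 3 (adjusted p = 0.0696) and without the 3 arrays highest in epithelial markers, where the change was 0.37 (adjusted p = 0.133).

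**Figure D4:**
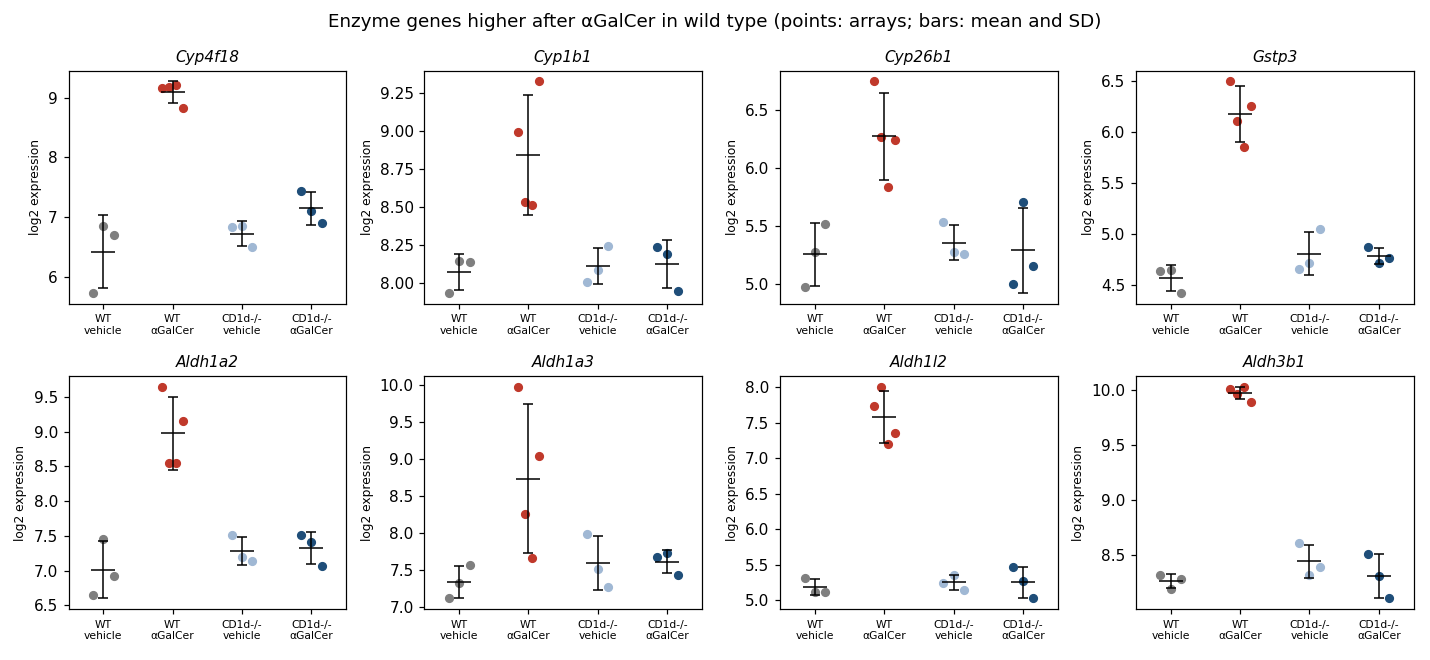
Log2 expression (y axis, scaled per gene and not starting at 0) of 8 genes that were higher after αGalCer in wild type, by group; points are arrays, horizontal bars are means and error bars SD. The wild type αGalCer arrays lie above the other 9 arrays in every panel except Aldh1a3, where one of them is at 7.67.

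Wild type αGalCer replicate 2 was the lowest of its group in 31 of the 39 genes that fell, and it also had the lowest adipocyte marker mean, 10.04 against 10.61 to 10.85 in the other 3 arrays. Without that array 53 of the 67 genes were called.

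In CD1d knockout mice none of the 67 genes passed the test after αGalCer, as none of the 18818 did (0% called). Their changes ran from -2.01 to 0.42 with a median of -0.02, and the smallest adjusted p was 0.72. At an unadjusted p under 0.05 there were 4 of the 67, Gstm7, Cyp46a1, Gsto1 and Gstp1, beside 6.81% of all genes and 6.95% of those with a mean of at least 5. The αGalCer and vehicle arrays of the knockout did not overlap in 13 of the 67, a separation seen in 13.8% of all genes and 15.9% of those with a mean of at least 5. Under array weights, which let limma discount the more variable arrays, 2 of the 67 were called: Cyp46a1, the neuronal cholesterol hydroxylase, changed by 0.36 (adjusted p = 0.0389) and Gsto1 by -0.24 (adjusted p = 0.0432). With 3 arrays against 3 and this spread, a change that was not called is not shown to be absent.

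The difference between the genotypes' responses was tested directly. It passed for 42 of the 67 genes, 30 with the lower and 12 with the higher response in wild type, where 28.2% of all genes passed, 14.3% lower and 13.9% higher. Among genes with a mean of at least 5 these shares were 39.5%, 20.2% and 19.2%. The largest were Fmo2 at -3.37 ± 0.32 (adjusted p = 1.6e-05), Cyp2e1 at -2.83 ± 0.54 (adjusted p = 0.00163), Aldh1a7 at -2.43 ± 0.55 (adjusted p = 0.005), Aldh1l2 at 2.39 ± 0.26 (adjusted p = 3.07e-05) and Cyp4f18 at 2.25 ± 0.34 (adjusted p = 0.000311). It did not pass for Gstm7 (-1.91 ± 0.97, adjusted p = 0.183), Gstm6 (-0.60 ± 0.99, adjusted p = 0.739), Sult1e1 (-1.47 ± 0.62, adjusted p = 0.102), Aldh1a3 (1.38 ± 0.59, adjusted p = 0.109) or Aldh1l1 (-0.80 ± 0.33, adjusted p = 0.0888). The difference for Cyp46a1, -0.39 ± 0.13, was called at an adjusted p of 0.0407 although neither genotype's own change was, and it was lost in 15 of 24 alternatives, with the largest adjusted p at 0.196. Without the 3 arrays highest in muscle markers 34 of the 67 differences were called, 27 lower and 7 higher, and without the 3 highest in epithelial markers 33, 27 lower and 6 higher. The 8 calls lost in both were those of Aldh1a7, Aldh1a2, Gsta3, Gstp1, Cyp1b1, Cyp26b1, Cyp46a1 and Aldh16a1. Without the epithelial-rich arrays their differences were -2.31, 1.36, -1.52, 0.49, 0.74, 0.98, -0.35 and 0.63, and without the muscle-rich arrays -2.39, 1.64, -1.72, 0.52, 0.80, 0.92, -0.37 and 0.54. With all arrays they were -2.43, 1.92, -1.83, 0.62, 0.76, 1.08, -0.39 and 0.65. Gstm2 (-0.84), Sult5a1 (-0.71) and Cyp21a1 (0.69) lost their call without the epithelial-rich arrays alone, and Cyp39a1 (-1.10) and Gstm4 (-0.62) without the muscle-rich arrays alone.

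After vehicle, none of the 67 passed the test between knockout and wild type, where 0.112% of all genes did. Knockout minus wild type was above 0 in 51 of the 67 and below 0 in 16, with a median of 0.12. Over all genes it was above 0 in 10471 of 18818, with a median of 0.02. With so few arrays, a difference that was not called is not shown to be absent. The smallest adjusted p among the 67 was 0.162, for Cyp2f2, which in mouse lung activates naphthalene. It was 6.29, 6.49 and 6.90 in wild type and 8.69, 7.71 and 7.73 in the knockout, without overlap. Knockout minus wild type was 1.49 ± 0.32. The next largest such difference was 1.27 ± 0.45 in Sult1e1 (adjusted p = 0.568). At an unadjusted p under 0.05 there were 11 of the 67, beside 6.69% of all genes and 8.18% of those with a mean of at least 5. The 2 groups did not overlap in 21 of the 67, where 11.2% of all genes and 13.7% of those with a mean of at least 5 had no overlap.

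After αGalCer, 53 of the 67 differed between the genotypes, 38 higher and 15 lower in the knockout, where 41.1% of all genes differed, 21.9% higher and 19.2% lower. Among genes with a mean of at least 5 these shares were 55.7%, 29.3% and 26.3%. The groups did not overlap in 57 of the 67, against 50.4% of all genes and 65.7% of those with a mean of at least 5. This comparison shares its wild type αGalCer arrays with those above. Cyp2e1 was 3.52 ± 0.37 higher in the knockout (11.5-fold, adjusted p = 6.07e-06), Fmo2 3.18 ± 0.22 (adjusted p = 2.46e-07) and Sult1e1 2.73 ± 0.42 (adjusted p = 0.000149). Cyp7b1, not called for the injection in either genotype, was lower in the knockout after αGalCer by 1.13 ± 0.28 (adjusted p = 0.00459), and Cyp2f2 was higher by 1.37 ± 0.30 (adjusted p = 0.00224). Without the 3 arrays highest in muscle markers 49 were called, and those lost were Aldh1a3 (-1.04), Aldh3b2 (0.55), Aldh9a1 (-0.35) and Cyp4f13 (0.27). Aldh1a3 was also lost without the 3 highest in epithelial markers (-1.12). Mgst2, which had fallen in wild type, was 6.16 there and 6.12 in the knockout after αGalCer, a difference of -0.04 ± 0.15 (adjusted p = 0.861).

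Genes that work beside these families were read from lists drawn up by function. Their counts stand beside the 22.0% of all genes that were lower and the 19.8% that were higher in wild type, or 29.7% and 26.8% among genes with a mean of at least 5. Of 29 oxidoreductases and hydrolases, 18 fell and 3 rose in wild type, 72.4% in all. They included Adh1, the alcohol dehydrogenase upstream of Aldh2 and of retinaldehyde, which fell by 2.70 ± 0.22, the carboxylesterase Ces1d, which fell by 2.18 ± 0.23, and the aldehyde oxidase Aox1, which fell by 1.69 ± 0.12. Xanthine dehydrogenase, Xdh, rose by 0.47 ± 0.08. Of 10 genes of conjugation and methylation, 6 were called. Of these 5 fell, led by the amine methyltransferase Inmt by 3.58 ± 0.33, and Ugdh, which makes UDP-glucuronate, rose by 0.40 ± 0.09. Both synthases of the sulfate donor fell, Papss2 by 0.53 and Papss1 by 0.47.

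Of 12 genes of glutathione supply and use, 3 rose and 5 fell, 66.7% called against 41.9% of all genes and 56.5% of those with a mean of at least 5. The cystine importer Slc7a11 rose by 2.85 ± 0.42 and glutaredoxin Glrx by 2.75 ± 0.12, while both subunits of the enzyme that starts glutathione synthesis fell slightly, Gclc by 0.29 ± 0.11 and Gclm by 0.30 ± 0.08. The secreted peroxidase Gpx3 fell by 1.03 ± 0.14. Of 9 targets of NRF2 outside the enzyme families, 4 rose (Hmox1 by 2.26, Txnrd1 by 0.74, Srxn1 by 0.67, and Slc7a11) and 4 fell (Me1 by 2.23, Nqo1 by 0.57, and the 2 synthesis subunits), 88.9% called. Of 9 sensors 55.6% were called. Ppara fell by 1.61 ± 0.12, its partner Rxra by 0.94 ± 0.10 and the aryl hydrocarbon receptor's partner Arnt by 0.36 ± 0.06, and Keap1, which restrains NRF2, rose by 0.31 ± 0.12. Hnf4a fell by 2.14 ± 0.62 in wild type beside a value of -2.17 in the knockout that was not called (adjusted p = 0.720). Ahr changed by 0.24 ± 0.15 and Nfe2l2, which encodes NRF2, by 0.19 ± 0.10, and neither was called.

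Of 13 genes of retinoid handling, 3 rose and 3 fell. The 46.2% called was near the 41.9% of all genes and below the 56.5% of those with a mean of at least 5. Dhrs9, a retinol dehydrogenase, rose by 3.22 ± 0.29, and the receptors Rara and Rarb by 0.64 and 0.58. The retinol carrier Rbp4 fell by 2.23 ± 0.20 and the retinol saturase Retsat by 0.91 ± 0.10. Crabp1, which binds retinoic acid in the cell, fell by 1.97 ± 0.65 in wild type, and its value in the knockout was -1.99 (adjusted p = 0.720). Of 8 efflux pumps, Abcc4 and Abcc1 rose by 0.77 and 0.53, and Abcg2 and Abcb1a fell by 1.23 and 0.95, and 4 were not called. No gene of these lists was called in the knockout.

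The minimum left 87 genes of the families out, of which 4 rose and 16 fell in wild type. The 23.0% called lay below the 41.9% of all genes. The 3 genes just above it were Cyp2c37, Cyp2d26 and Fmo4, with means of 5.05, 5.06 and 5.15, and the 3 just below were Cyp24a1, Cyp17a1 and Aldh1b1, with 4.93, 4.89 and 4.80. Aldh1b1, a mitochondrial aldehyde dehydrogenase, was 4.33 to 4.40 in wild type after vehicle, 5.36 to 5.76 after αGalCer and 4.49 to 4.69 in the knockout. It rose by 1.15 ± 0.10. Cyp17a1, of androgen synthesis, reached 8.23 in the third wild type array after vehicle, while the remaining 12 lay between 4.27 and 4.97. That array also had the highest mean of 5 epididymis markers, 5.03 against 3.55 to 3.96.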

How the data were processed

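RNA of 13 samples was hybridised to Affymetrix gene arrays. The log2 values per probe set were deposited by the authors and made with RMA, per the submitters' processing notes; which RMA version, chip definition and build were used is not given in the sources used here. Of 35556 probe sets, 21218 had 1 symbol in the platform annotation, updated through Entrez identifiers in RefSeq's GRCm38.p6 table (21185 matched). The probe set with the highest mean stood for each of 18818 genes. The second probe sets of Aldh3b2, Aldh3b3, Cyp1b1, Cyp21a1 and Gstm3, the members with more than 1, are given in the text. A further 21 probe sets that carry several symbols, at least 1 of these families, were not used.

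A single limma fit (limma 3.58.1 in R 4.3.3) took all 13 arrays and estimated each group's mean, with 9 residual degrees of freedom and eBayes with an intensity trend. Tests were two-sided, Benjamini-Hochberg adjusted over all genes and called under 0.05. On simulated data over 18818 genes, 84% of genes changed by 1 and 98% of those changed by 2 were called for αGalCer in wild type. For the difference of effects these shares were 64% and 93%. Only 200 genes were changed there, and the noise was independent, with 1 SD per gene in all groups. In the data 7881 genes were called in wild type and spreads differed between groups, so these shares are not the power of this experiment. The families, lists and tests were chosen with earlier results of these data known. Genes were named by rule. Per family these were the 4 largest called rises and falls and the gene with the highest mean. The rule also took every gene called in another contrast, those beside the minimum, and a list of steroid, retinoid and conjugation enzymes. Other genes named, among them Cyp20a1, Aldh3b3, Sult1c2, Sult1d1 and Cyp2j13, were chosen after their values were seen. Motifs were searched by exact letters on both strands. RMA compresses dim values, which understates changes from low levels, and the number of arrays limits the precision. No 2 arrays held identical values. The labels do not say whether replicate numbers pair arrays across groups. Of 18 same-numbered pairs, 5 deviated together with a correlation over 0.1, the highest at 0.48. Arrays with different numbers were not compared, so these values cannot decide whether the numbers pair arrays. Alternatives covered the variance model, normalisation, array weights, probe set choice, the minimum, covariates and arrays left out.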

Additional observations from a re-analysis of the deposited data

Results flagged for a closer look

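The 4 wild type αGalCer arrays were checked for each of 63 named genes, and in 8 genes 1 array stood far from the other 3. Chance gives about 1 in 20 for a single gene. The genes share the same 4 arrays, so their count cannot be set against that rate. In 5 of them it was wild type αGalCer replicate 2, which was low: Aldh1a7 at 5.76, Aldh5a1 at 5.27, Cyp2f2 at 5.45, Gsta3 at 6.08 and Mgst1 at 10.06. Replicate 3 was high in Fmo5 at 7.49 and in Gstp1 at 11.05, and replicate 4 was low in Cyp4f18 at 8.82.

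The response to αGalCer differed between wild type and knockout, by limma's test of the difference over all genes, in 42 of the 67 genes and in 3 of the 87 below the minimum. Of the latter Aldh1b1 was named by rule, and Cyp2b10 (-0.65) and Sult3a2 (-0.23), which lay at means of 4.47 and 2.41, are named because they complete the count. Each value is the log2 change in wild type minus that in the knockout. Among the Cyp genes it was below 0 for Cyp2e1 (-2.83), Cyp4b1 (-1.73), Cyp2d22 (-1.66), Cyp39a1 (-1.35), Cyp2j9 (-1.27), Cyp2j6 (-1.08), Cyp2u1 (-0.99), Cyp2s1 (-0.96) and Cyp46a1 (-0.39). It was above 0 for Cyp4f18 (2.25), Cyp26b1 (1.08), Cyp1b1 (0.76) and Cyp21a1 (0.64). The 4 Fmo genes gave -3.37 (Fmo2), -1.90 (Fmo1), -1.31 (Fmo5) and -0.96 (Fmo4).

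Among the transferases the difference was below 0 for Gsta3 (-1.83), Gstt2 (-1.68), Sult1a1 (-1.65), Gsta4 (-1.41), Gstt1 (-1.30), Gstm1 (-1.30), Mgst3 (-1.21), Sult5a1 (-0.96), Gstm3 (-0.95), Gstm2 (-0.82), Gstm4 (-0.74) and Mgst1 (-0.69). It was above 0 for Gstp3 (1.63), Gsto1 (0.63) and Gstp1 (0.62). The aldehyde dehydrogenases gave -2.43 (Aldh1a7), -2.03 (Aldh6a1), -1.50 (Aldh5a1), -1.22 (Aldh1a1) and -1.02 (Aldh2), and 2.39 (Aldh1l2), 1.92 (Aldh1a2), 1.83 (Aldh3b1), 1.62 (Aldh18a1), 1.06 (Aldh1b1, below the minimum) and 0.65 (Aldh16a1).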

How the results depend on the processing

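The number of genes called stayed within 1.5 times its main value under every alternative run, except for αGalCer in the knockout, where array weights gave 2 calls and every other alternative 0. For αGalCer in wild type (54 called) the other counts over the 67 genes lay between 41, without the 3 arrays highest in epithelial markers, and 56, under array weights; a minimum of 4, which takes in more genes, gave 65. Counts of one direction moved by more: the rises in wild type from 15 to 9 without those arrays and to 10 at a fold of at least 1.5, and the higher differences of effects from 12 to 6 without them, 7 without the 3 arrays highest in muscle markers and 8 without knockout αGalCer replicate 3. Leaving out single arrays gave 47 to 54 in wild type, 0 in the knockout, 38 to 43 for the difference of effects, 0 for the genotypes after vehicle and 49 to 55 after αGalCer. The replicate block, for numbers not known to pair the arrays, gave 53, 0, 41, 0 and 51. Of 55 named genes called in wild type, 39 were called under every alternative, 16 were not under some and none reversed. Of 43 named differences 30 were called throughout, and of 54 genotype calls after αGalCer 50 were.

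Single values moved by over 1.5 times beside those given above. The Cyp21a1 rise was 0.31 over both probe sets and 0.29 under the epithelial covariate (adjusted p = 0.173), Cyp4f16 was 0.44 under it, and the Gstm3 difference was -0.59 over both probe sets. The Aldh16a1 difference was 0.41 under array weights (adjusted p = 0.0546). Aldh1a3 after αGalCer was -0.71 in knockout minus wild type without wild type αGalCer replicate 1 (adjusted p = 0.0732). Leaving out 1 array also ended calls for the difference of effects: in Cyp1b1, Cyp21a1, Cyp26b1, Aldh16a1 and Cyp46a1 for 1 or more arrays each, with the largest adjusted p under any alternative at 0.179, 0.0736, 0.194, 0.104 and 0.196; the value nearest 0 under any alternative was 0.58, 0.45, 0.75, 0.41 and -0.34. For the genotypes after αGalCer the calls of Aldh9a1, Cyp4f13 and Aldh3b2 were likewise lost without single arrays, with the largest adjusted p at 0.121, 0.0906 and 0.0549 and the value nearest 0 at -0.26, 0.22 and 0.54. The cause of these shifts was not tested. No probe set was tested for detection, and how far dim signal over background limits the low genes is not known.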
